A study of Mus musculus with 14 samples.

Results

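The genes described here are made by hepatic stellate cells or build and remodel the extracellular matrix of the liver: collagens, proteoglycans, matrix glycoproteins, elastic fibre and crosslinking genes, proteases and their inhibitors, receptors and ligands of the growth factors that act on stellate cells, and 2 filament genes. Of 38 genes listed by name, 36 had a probe set annotated to that gene and to no other, which was the rule for inclusion, and each of the 36 had 1 such probe set. The single probe set of Loxl2 was shared with Gm21451, and Fbn1 was not analysed here. The whole table held 23410 probe sets with a gene symbol, and all of them were fitted together.

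Livers came from male C57BL/6 mice aged 24 weeks that had eaten a high-fat diet for 20 weeks, a model of low-grade metabolic inflammation. There were 14 mice in 2 groups, 7 that received mesenchymal stem cells (MSCs, the HFM group) and 7 that received saline (the HFS group, called PBS in part of the methods), and the tissue was taken 24 h after the injection. The MSCs were GFP-labelled human bone marrow cells of a single donor, given by tail vein, whereas the probe sets were designed for mouse transcripts. By PCR the paper found human DNA in livers of the HFM group only. Whether donor RNA added to the HFM signal was not tested. RNA of each mouse was hybridized to its own Affymetrix mouse gene array, so the mice are the replicates, and all 14 had eaten the high-fat diet. Values are deposited log2 expression, on which a difference of 1 is a doubling, and all differences are HFM minus HFS. They describe whole liver, in which fewer cells of a type and less RNA per cell cannot be told apart.

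Hepatic stellate cells lie between hepatocytes and the sinusoidal endothelium, where they store vitamin A. When activated by injury they turn into contractile, matrix-producing myofibroblasts, with transforming growth factor beta driving collagen production and platelet-derived growth factor driving proliferation and migration. Collagens are then crosslinked by lysyl oxidases and removed by matrix metalloproteinases, which the tissue inhibitors of metalloproteinases hold back.

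The label of the set was set beside 15 stellate cell markers, all of which were measured. The 5 markers that are also in the set (Des, Reln, Pdgfrb, Ecm1 and Dcn) lay above the array's median signal on all 14 arrays. That level is not a detection call and cannot test the label. Col2a1, a collagen outside the set, also lay above it on all 14 arrays, from 5.33 to 6.02. Lrat, the enzyme that stores vitamin A as its ester, singled out after its values were seen, had a log2 level of 6.74 ± 0.44 (SD, n = 7) in HFM and 6.44 ± 0.24 (SD, n = 7) in HFS livers, where array medians ran from 4.24 to 4.35. Nes and Gfap, markers outside the set, lay below the array median on every array. Their highest values were 3.41 for Nes, in an HFS mouse, and 3.93 for Gfap, in an HFM mouse. Among the set's own genes, 3 (Lum, Lox and Timp1) lay below the array median on every array. These arrays correlated with each other at 0.970 to 0.991, with a median of 0.986 both within and between groups.

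Most genes of the set had a higher mean in HFM than in HFS livers, with the largest differences for the matrix glycoprotein Tgfbi, the protease inhibitor Timp3, the receptor Pdgfra and the collagen Col14a1. Of the 36 genes, 25 had a higher mean in HFM, as did 51.4% of all tested probe sets, and 11 had a lower mean, and the median difference was 0.11 against 0.00 over all tested probe sets. At an unadjusted limma p under 0.05, 9 genes were higher, or 25% of the set, beside 3.57% of all probe sets. They were Tgfbi, Timp3, Pdgfra, Col14a1, Sparc, Pdgfrb, Tgfbr2, Col1a2 and Fn1. Loxl1 alone was lower by the same criterion, 2.78% of the set beside 2.90% of all probe sets. The set was chosen with earlier results of these data known, so these shares describe it and do not test it. The study's methods name a p below 0.01, a 1.2-fold difference and a Bonferroni correction. The p, taken unadjusted from limma, and the fold together (called the filter of the methods here) were passed by 1 gene, Tgfbi, against 0.696% of all probe sets in either direction and 0.453% with HFM higher. With a Bonferroni correction over all probe sets, 0 genes of the set and 0 probe sets passed 0.05. After Benjamini-Hochberg adjustment over all 23410 probe sets in limma, 0 of the 36 genes passed 0.05, as did 0% of all probe sets, and the adjusted p of the set ran from 0.714 to 0.990. The differences are therefore given with the values of the mice and with a two-sided exact permutation test, whose smallest possible p is 0.000583.

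**Figure D1:**
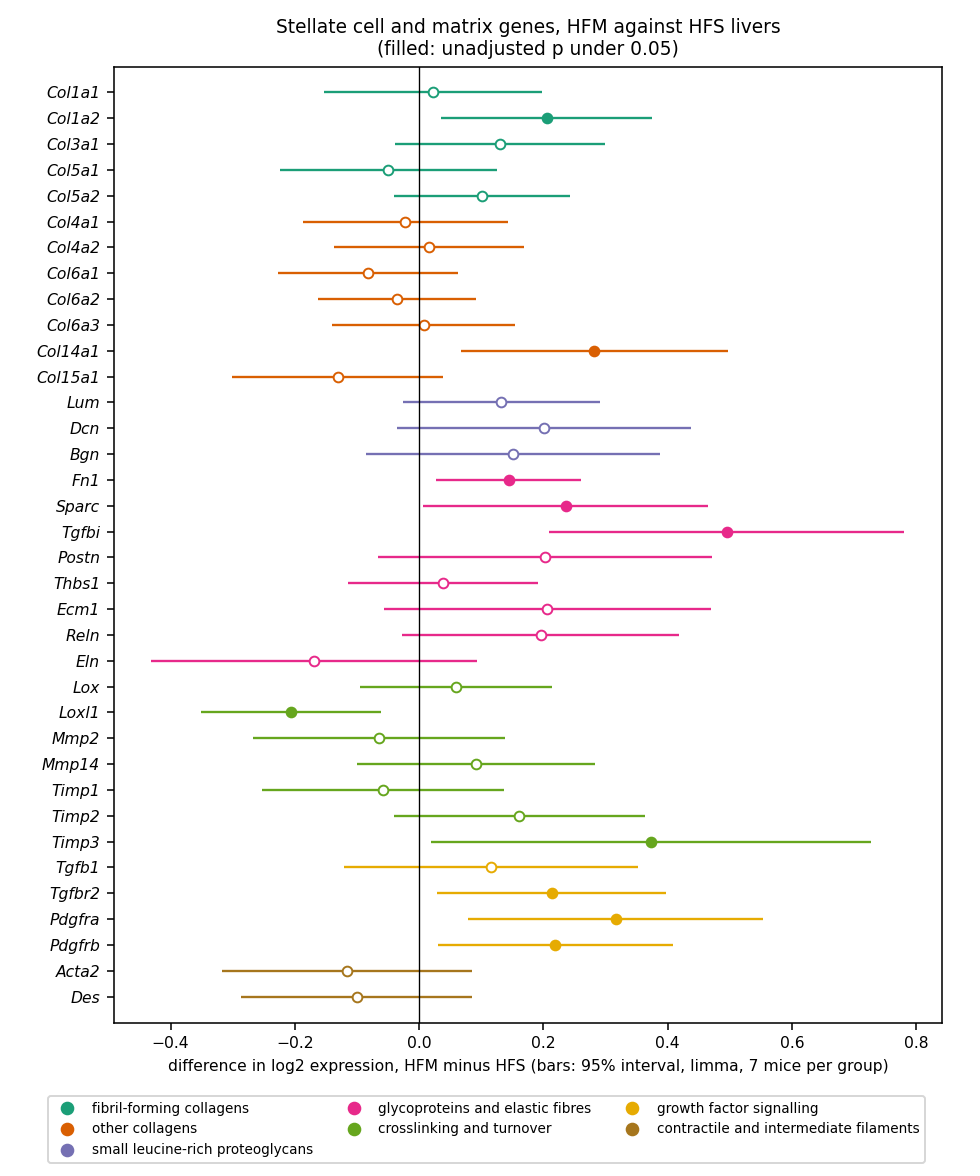
Difference in log2 expression between HFM and HFS livers (horizontal axis) for each of the 36 genes (vertical axis), coloured by role; bars are 95% intervals from limma with 7 mice per group and filled points have an unadjusted p under 0.05. Tgfbi sits farthest to the right at 0.50, all 4 growth factor signalling genes lie right of 0, and Col1a1, Col4a1, Col4a2 and Col6a3 lie within 0.03 of 0.

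Among the fibril-forming collagens, which make the tensile fibres of scar, 4 of 5 had a higher HFM mean and 1 (Col1a2) passed the unadjusted threshold, with a median difference of 0.10. Col1a2, the alpha 2 chain of type I collagen, measured 5.77 at the lowest, 6.20 at the median and 6.23 at the highest in HFM livers. In HFS livers it measured 5.68, 5.91 and 6.10 in the same order. The highest HFS mouse was exceeded by 6 of the 7 HFM mice, and the exception was HFM5. The difference was 0.21 (SE 0.08), with an unadjusted limma p of 0.0202, an adjusted p of 0.767 and an exact permutation p of 0.0286.

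Col1a1, the partner chain in the same heterotrimer, differed by 0.02 (SE 0.08), with a 95% interval from -0.15 to 0.20 and a limma p of 0.797. Its HFM mice ran from 6.21 to 6.66 around a median of 6.39, and its HFS mice from 6.18 to 6.56 around 6.42, so that the groups covered nearly the same range. Col3a1, the fibril collagen that accompanies type I, spanned 6.07, 6.38 and 6.62 (lowest, median and highest) in HFM and 6.03, 6.27 and 6.31 in HFS mice. Its difference was 0.13 (SE 0.08, limma p 0.124), and 4 HFM mice lay above every HFS mouse. Col5a1 and Col5a2, chains of the type V collagen that starts fibrils, differed by -0.05 and 0.10. Whether Col1a2 differed more than Col1a1 was not tested.

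Other collagens were split, 3 with a higher and 4 with a lower HFM mean, around a median difference of -0.02. Col14a1, a collagen that binds along fibrils and regulates their assembly, was the only one past the unadjusted threshold. Its HFM levels were 6.61 at the lowest, 7.17 at the median and 7.38 at the highest, against 6.70, 6.79 and 6.83 in HFS livers. The HFS mice lay close together, and the HFM mice fell on both sides of them, 5 above every HFS mouse and 2 (HFM5 and HFM7) below every HFS mouse. The mean difference was 0.28 (SE 0.10), with a limma p of 0.0129, an adjusted p of 0.749 and an exact permutation p of 0.0221. The SD was 0.29 in HFM and 0.05 in HFS mice (n = 7 each).

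Basement membrane and microfibril collagens of the set showed no difference past the threshold. Col4a1 and Col4a2, the chains of the type IV network under endothelium, differed by -0.02 (95% interval -0.19 to 0.14) and 0.02 (-0.14 to 0.17). The type VI chains differed by -0.08 for Col6a1, -0.04 for Col6a2 and 0.01 for Col6a3. Col15a1, a collagen of basement membrane zones, differed by -0.13 (limma p 0.123), and 6 HFM mice were under the mean of HFS mice.

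Small leucine-rich proteoglycans coat collagen fibrils and can bind growth factors, and all 3 had a higher HFM mean, with 0 past the threshold and a median difference of 0.15. Dcn, decorin, measured 9.24, 9.79 and 10.05 (lowest, median and highest) in HFM and 9.24, 9.48 and 9.67 in HFS livers. In 5 HFM mice Dcn was above every HFS mouse, while HFM5 and HFM7 were level with the lowest HFS mouse. The difference was 0.20 (SE 0.11, limma p 0.0909, exact permutation p 0.138). Lum, lumican, differed by 0.13 (limma p 0.0972) at a signal below the array median, with all 7 HFM mice above the HFS mean. Bgn, biglycan, differed by 0.15 (limma p 0.198).

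The matrix glycoproteins and elastic fibre genes held the largest difference of the set. Of the 8 measured, 7 had a higher HFM mean, 3 passed the unadjusted threshold (Tgfbi, Sparc and Fn1) and the median difference was 0.20. Tgfbi encodes an adhesion protein of the matrix that is induced by transforming growth factor beta. Its HFM levels were 7.10 at the lowest, 7.77 at the median and 8.12 at the highest, and its HFS levels 6.96, 7.22 and 7.41. The highest HFS mouse was exceeded by 5 HFM mice, while HFM5 and HFM7 lay inside the HFS range. The difference was 0.50 (SE 0.14), a 1.41-fold difference, with an unadjusted limma p of 0.00185, an adjusted p of 0.714 and an exact permutation p of 0.0128.

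Fn1, fibronectin, the glycoprotein laid down early in matrix assembly, showed a small difference with little spread. Its HFM mice measured 10.88, 11.02 and 11.10 (lowest, median and highest), and its HFS mice 10.80, 10.84 and 11.01. All 7 HFM mice were above the HFS mean and 6 were above every HFS mouse, HFM1 being the exception. The difference was 0.14 (SE 0.06, limma p 0.0186), with an exact permutation p of 0.00466, the smallest of the 36 genes by that test. Hepatocytes also make fibronectin, as the plasma form, and the probe set gives the sum of all sources.

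Sparc, a collagen-binding protein of remodelling matrix, ran from 7.62 to 8.30 with a median of 8.15 in HFM and from 7.48 to 7.96 with a median of 7.87 in HFS livers. Its difference of 0.24 (SE 0.11) had a limma p of 0.0447 and an exact permutation p of 0.0775, and HFM5 and HFM7 were again the lowest of their group. Reln, reelin, a secreted glycoprotein of quiescent stellate cells, differed by 0.20 (SE 0.11, limma p 0.0817), with 5 of 7 HFM mice above the HFS mean. Ecm1, which keeps latent transforming growth factor beta from activation, differed by 0.21 (limma p 0.118), Postn, periostin, by 0.20 and Thbs1, an activator of latent transforming growth factor beta, by 0.04. Eln, elastin, was the member of the group with a lower HFM mean, by -0.17 (limma p 0.193), and its HFM values from 4.40 to 5.44 reached beyond both ends of the HFS range of 4.90 to 5.19.

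**Figure D2:**
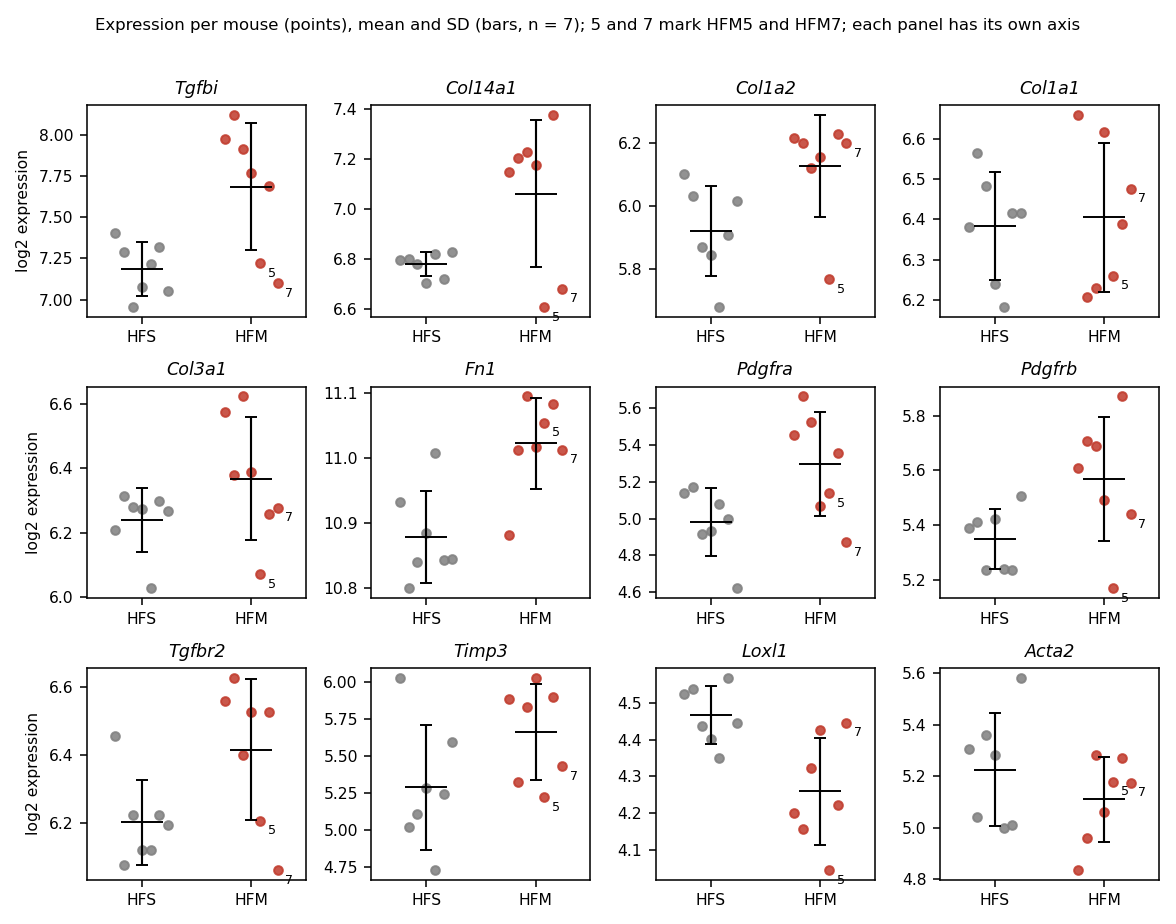
Log2 expression (vertical axis, a separate scale for each panel) of 12 of the genes in each HFS mouse (grey) and HFM mouse (red), with the mean and SD of 7 mice per group and HFM5 and HFM7 numbered. In Tgfbi and Col14a1 5 HFM mice lie above every HFS mouse and HFM5 and HFM7 do not. Col1a1 overlaps for the most part, with 2 HFM mice above every HFS mouse, and Loxl1 lies lower in HFM.

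Crosslinking and turnover genes differed in both directions, 4 of 7 with a higher and 3 with a lower HFM mean and 1 past the threshold in each direction. Loxl1, a lysyl oxidase that crosslinks elastin and collagen, measured 4.05 at the lowest, 4.22 at the median and 4.45 at the highest in HFM livers and 4.35, 4.45 and 4.57 in HFS livers. All 7 HFM mice were below the HFS mean and 5 were below every HFS mouse. The difference was -0.21 (SE 0.07), with a limma p of 0.00757, an adjusted p of 0.714 and an exact permutation p of 0.00816. On 4 arrays its signal was below the array median. Lox, the related enzyme that also crosslinks collagen, differed by 0.06 (limma p 0.431).

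Timp3, a metalloproteinase inhibitor that is bound to the matrix, had HFM levels of 5.23, 5.84 and 6.03 (lowest, median and highest) and HFS levels of 4.73, 5.25 and 6.03. No HFM mouse lay above the highest HFS mouse, HFS1, and 6 of 7 lay above the HFS mean. The difference was 0.37 (SE 0.17), with a limma p of 0.0401 and an exact permutation p of 0.0903. Timp2, a soluble inhibitor, differed by 0.16 (SE 0.10, limma p 0.111), with 4 HFM mice above every HFS mouse and 1, HFM5, below every HFS mouse. Timp1, an inhibitor induced in activated stellate cells, differed by -0.06 (limma p 0.534) at a signal below the array median. The metalloproteinases Mmp2, a gelatinase, and Mmp14, its membrane-bound activator, differed by -0.06 and 0.09.

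All 4 growth factor signalling genes had a higher HFM mean, and 3 of them, all receptors, passed the unadjusted threshold. Pdgfra, a receptor for platelet-derived growth factor found on fibroblasts and quiescent stellate cells, measured 4.87, 5.36 and 5.67 (lowest, median and highest) in HFM and 4.62, 5.00 and 5.17 in HFS livers. Its difference was 0.32 (SE 0.11, limma p 0.0118, exact permutation p 0.0315), and 4 HFM mice were above every HFS mouse. Pdgfrb, the receptor that marks stellate cells and pericytes, spanned 5.17, 5.61 and 5.87 in HFM and 5.23, 5.39 and 5.51 in HFS mice, with 4 HFM mice above and HFM5 below every HFS mouse. Its difference was 0.22 (SE 0.09, limma p 0.0253, exact permutation p 0.0449). Tgfbr2, the receptor that binds transforming growth factor beta first, spanned 6.06, 6.53 and 6.63 in HFM and 6.08, 6.19 and 6.46 in HFS mice. It differed by 0.21 (SE 0.09, limma p 0.0256, exact permutation p 0.0460), with HFM7 below every HFS mouse. Tgfb1, the ligand, differed by 0.12 (SE 0.11, limma p 0.319), and its highest HFM mouse, HFM2 at 6.45, stood above a median of 5.81.

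Both filament genes had a lower HFM mean, with 0 past the threshold. Acta2, the smooth muscle actin of contractile myofibroblasts, measured 4.84, 5.18 and 5.28 (lowest, median and highest) in HFM and 5.00, 5.28 and 5.58 in HFS livers, a difference of -0.12 (95% interval -0.32 to 0.09, limma p 0.241). Des, desmin, the intermediate filament of stellate and muscle cells, differed by -0.10 (95% interval -0.29 to 0.08, limma p 0.270). In both genes 0 HFM mice lay above every HFS mouse and 2 lay below every HFS mouse.

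The 7 HFM mice did not share these differences evenly. The mean deviation of the 36 genes from their HFS means was 0.18 in HFM1, 0.11 in HFM2, 0.09 in HFM3, 0.15 in HFM4, -0.08 in HFM5, 0.18 in HFM6 and 0.01 in HFM7. The HFS mice ran from -0.11 in HFS5 to 0.11 in HFS1. HFM6 had 29 of 36 genes above the HFS mean, as did HFS1, and HFM5 had 14. HFM5 was the lowest HFM mouse in 15 genes and HFM7 in 6, and these 2 mice were the lowest pair in 12 genes. HFM5 and HFM7 were also the lowest HFM mice in the mean of 12 macrophage markers (6.62 and 6.74) and of 10 sinusoidal endothelial markers (6.45 and 6.55). They were the highest HFM mice in the mean of 5 cholangiocyte markers (4.22 and 4.16) and of 4 vascular smooth muscle markers (4.48 and 4.54). The part of these cell types in the values of HFM5 and HFM7 was not tested. For 5 genes (Col1a2, Col14a1, Dcn, Fn1 and Tgfbi) the HFS maximum was exceeded in at least 5 of the 7 HFM mice, where 1.87% of all probe sets did so. No gene of the set separated the groups completely, which 0.0256% of all probe sets did with HFM higher and 0.0299% with HFM lower.

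**Figure D3:**
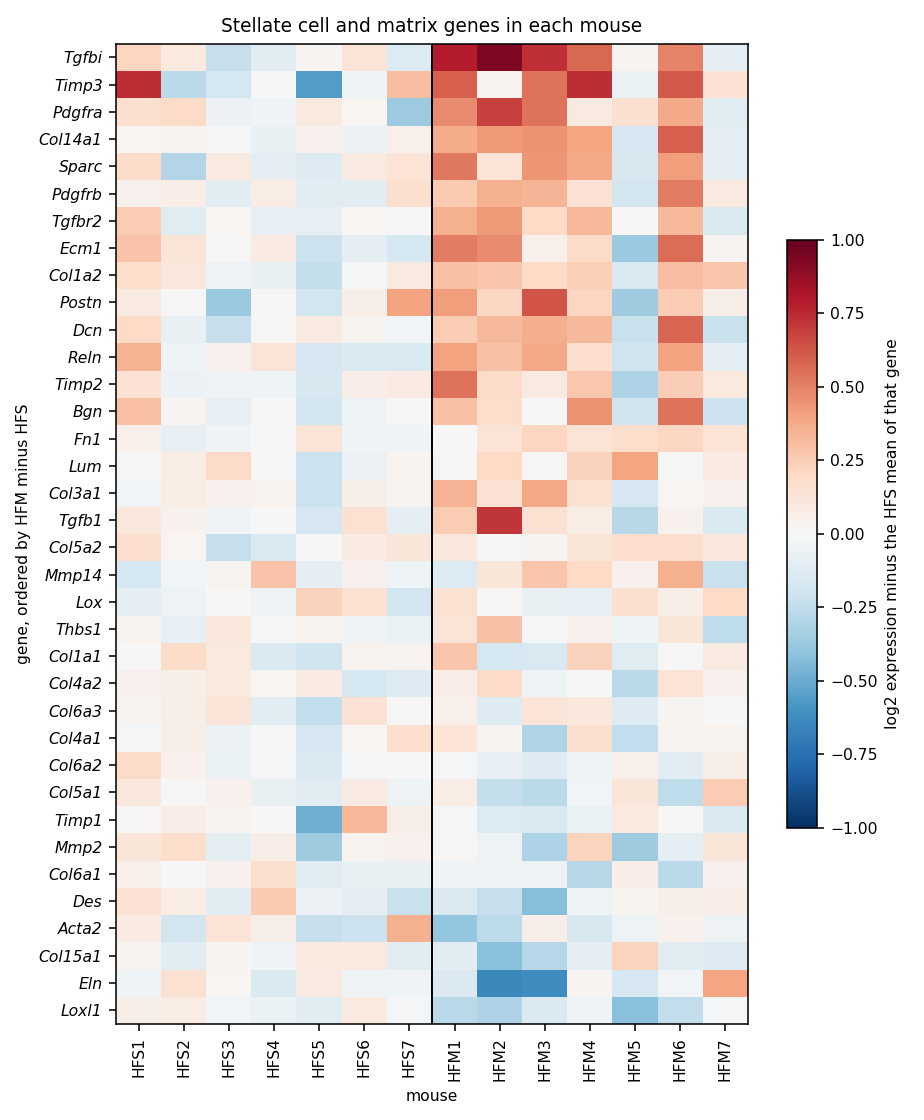
Log2 expression of each gene minus its own HFS mean (colour) in every mouse (columns), with genes (rows) ordered by the difference between HFM and HFS. The upper rows are red in HFM1 to HFM4 and HFM6 and mostly pale or blue in HFM5 and HFM7, and HFS1 is red and HFS5 blue in many of the same rows.

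Leaving out single mice moved the count of higher genes. Without HFM5 it was 15 instead of 9, while the share of all probe sets that were higher went from 3.57% to 5.40%. Without HFM6 it was 5, beside 3.26% of all probe sets. Without HFM7 it was 11, beside 5.28% of all probe sets. Leaving out HFM5 also took the genes past the filter of the methods from 1 to 5, and leaving out HFM7 to 4. The share of all probe sets past that filter without these mice is not given here. Without HFM5 or HFM7 a second gene was counted as lower, Col15a1 and Eln respectively, and the share of all probe sets that were lower went from 2.90% to 3.35% without HFM5 and to 5.25% without HFM7. Tgfbi, Col14a1, Fn1 and Pdgfra stayed under an unadjusted p of 0.05 in each of 24 alternative settings run, and Loxl1 in each of the 23 in which it was tested. Sparc passed the unadjusted threshold in 14 of 24 and Timp3 in 12 of 24. Each of these genes had 1 probe set, so the settings with 1 probe set or the mean per gene left its values unchanged.

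Relations between the genes across the 14 mice differed with the gene taken as reference. Col1a1 correlated positively with 26 of the 35 other genes, and 0 of the 35 relations passed an adjusted p of 0.05 by permutation. The strongest was with Col4a1 (r = 0.69, permutation p 0.00571, adjusted p 0.160, rho = 0.66, permutation p 0.0126, adjusted p 0.390), and r was 0.61 without HFM1 and HFS5, the mice farthest from the median of Col1a1. Within groups it was 0.76 in HFM and 0.56 in HFS mice. Dcn was taken as reference after the values were seen, and 14 of its 35 relations passed an adjusted permutation p of 0.05 for r. Of these, 12 were positive, with Col14a1, Bgn, Tgfbi, Tgfbr2, Pdgfrb, Reln, Sparc, Ecm1, Postn, Pdgfra, Timp2 and Timp3, and 2 were negative, with Col5a1 and Col6a1. By rho, Pdgfra, Col5a1 and Col6a1 missed that threshold, with adjusted p of 0.0532, 0.0510 and 0.0545. The adjustment covers the 35 relations of Dcn and not its choice as reference, so these adjusted p are descriptive. The median r over the 35 relations was 0.45, and 0.33 with group means removed. For Tgfbi r was 0.81 (permutation p 0.00055, adjusted p 0.00462) and rho 0.80 (permutation p 0.00081, adjusted p 0.0142). Its r was 0.84 without HFM6 and HFM3, the mice farthest from the median of Dcn, 0.79 within HFM and 0.75 within HFS mice. For the other positive relations, Col14a1 aside, r within HFS mice was lower, from 0.14 (Pdgfrb) to 0.48 (Bgn). Within HFM mice it ran from 0.61 (Timp2) to 0.92 (Reln). For Col5a1 and Col6a1, r was -0.85 and -0.79 within HFM and 0.05 and -0.11 within HFS mice. Dcn, Tgfbi and Col14a1 each had the same 5 HFM mice above all other mice, so their coefficients over all mice also carry that split. Col14a1 fell into separate clusters, and its coefficient over all mice is not printed, though the relation is counted above. Within the 7 HFM mice, which span both clusters, r of Dcn with Col14a1 was 0.99, and within the 7 HFS mice, where Col14a1 hardly varied, it was 0.02.

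**Figure D4:**
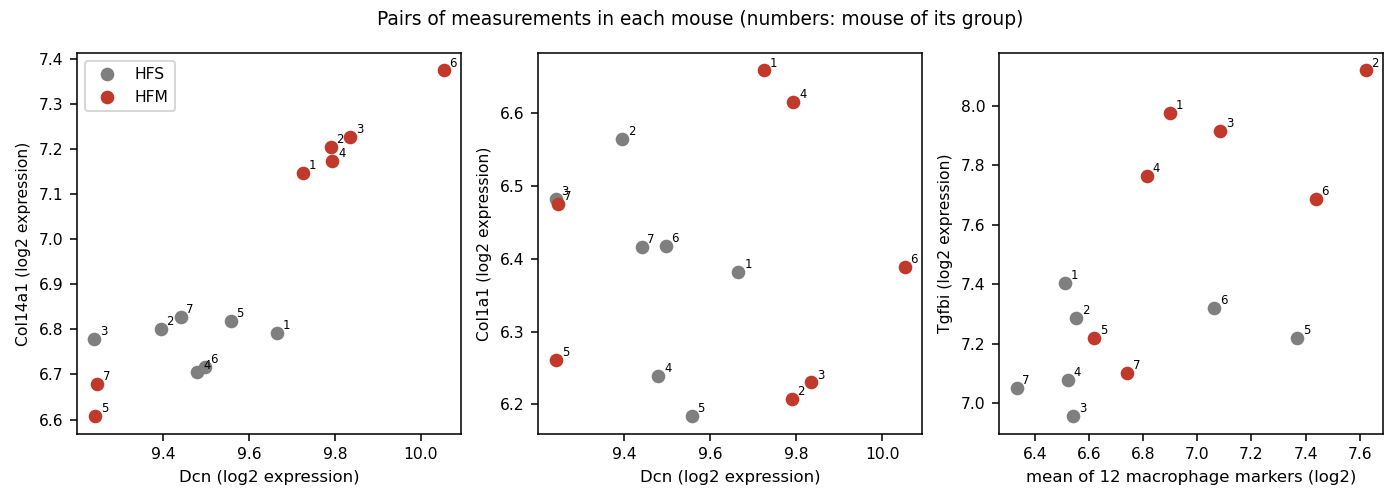
Log2 expression in each numbered HFS (grey) and HFM (red) mouse for Dcn against Col14a1 (left), Dcn against Col1a1 (middle), and the mean of 12 macrophage markers against Tgfbi (right). HFM1 to HFM4 and HFM6 lie apart in the left panel, the middle panel shows no common direction, and in the right panel HFM2 is highest on both axes.

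Some listed genes are neighbours in the genome. Col4a1 and Col4a2 lie head to head, Col3a1 with Col5a2, Col6a1 with Col6a2 and Dcn with Lum lie next to each other, and these 4 pairs were compared after the values were seen. Across the 14 mice 0 of 4 pairs passed an adjusted permutation p of 0.05, by r or by rho. For Col4a1 and Col4a2, whose protein chains assemble into 1 trimer, r was 0.27 (permutation p 0.355, adjusted p 0.480) and rho 0.06 (permutation p 0.831, adjusted p 0.831), and r was -0.33 without HFM3 and HFM5.

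Promoter windows of 300 bases, which span the start site, were taken from RefSeq on build GRCm38.p6 and matched 24 of the 36 genes. They are printed for Tgfbi, with the largest difference, for Col1a2, the fibril collagen chain past the unadjusted threshold, and for Col4a1, whose window shares 78 bases with that of Col4a2 on the opposite strand. Each is written 5′ to 3′ on the gene's own strand, plus for Tgfbi (chr13:56609336-56609635) and Col1a2 (chr6:4505368-4505667) and minus for Col4a1 (chr8:11312777-11313076). Capitals mark exact matches, on either strand, to any of 4 short motifs. The GC box, bound by Sp family factors, was searched as GGGCGG. The Smad-binding element core was searched as CAGACA. The box bound by nuclear factor Y was searched as CCAAT. The core promoter box bound by the general transcription machinery was searched as TATAAA.
Tgfbi: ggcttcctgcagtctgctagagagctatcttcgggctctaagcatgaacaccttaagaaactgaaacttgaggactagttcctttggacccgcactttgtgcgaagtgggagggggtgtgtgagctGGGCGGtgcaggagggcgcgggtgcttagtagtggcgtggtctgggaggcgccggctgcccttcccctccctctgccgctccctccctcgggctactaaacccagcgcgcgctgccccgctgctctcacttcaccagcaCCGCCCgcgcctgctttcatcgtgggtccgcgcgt
Col1a2: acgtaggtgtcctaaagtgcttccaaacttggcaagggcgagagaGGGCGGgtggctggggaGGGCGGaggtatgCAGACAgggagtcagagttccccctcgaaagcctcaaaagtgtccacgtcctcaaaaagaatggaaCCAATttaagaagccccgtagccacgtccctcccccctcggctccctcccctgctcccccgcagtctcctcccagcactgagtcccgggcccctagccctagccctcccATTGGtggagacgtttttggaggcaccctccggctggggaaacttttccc
Col4a1: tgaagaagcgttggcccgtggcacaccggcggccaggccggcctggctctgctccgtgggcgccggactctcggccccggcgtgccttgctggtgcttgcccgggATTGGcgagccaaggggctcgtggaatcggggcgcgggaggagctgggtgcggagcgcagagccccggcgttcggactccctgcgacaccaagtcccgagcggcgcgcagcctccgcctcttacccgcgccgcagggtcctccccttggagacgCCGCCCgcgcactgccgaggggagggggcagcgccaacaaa

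In these 3 windows the Tgfbi promoter holds the GC box on both strands, Col1a2 holds the GC box, the nuclear factor Y box and the Smad element core, and Col4a1 holds the nuclear factor Y box and the GC box. The 24 matched genes had 26 windows, since Col6a2 and Postn each have 2. Of these windows 16 held the GC box (61.5%, beside 35.7% of 32851 RefSeq promoters), 8 the nuclear factor Y box (30.8% beside 37.4%), 7 the Smad element core (26.9% beside 21.0%) and 3 the core promoter box (11.5% beside 13.6%). GC content had a median of 58.2% in the 26 windows and 52.7% in all promoters. These matches are descriptions of letters, and binding was not measured.

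The wider matrix programme was read from lists drawn up by function. Beside the counts of these lists and of the marker lists below, 3.57% of all probe sets were higher and 2.90% lower at the unadjusted threshold. A higher HFM mean was found in 51.4% of all probe sets. Of 18 further collagens, 0 were higher and 5 were lower at the unadjusted threshold, with 3 above 0 and a median of -0.10. The 4 with the smallest p were Col13a1 at -0.22, a transmembrane collagen, Col24a1 at -0.18, a fibrillar collagen, Col7a1 at -0.16, the anchoring fibril collagen, and Col23a1 at -0.21, another transmembrane collagen. Their mean levels ran from 4.65 to 5.66 in HFM and from 4.84 to 5.87 in HFS livers. Whether these signals stood above background was not tested. Of 19 laminin and basement membrane genes 2 were higher and 0 lower, Nid1, the linker of laminin to type IV collagen, at 0.47 (limma p 0.0164) and Lamc1, a laminin chain, at 0.17, and the median was -0.05. Of 32 further glycoproteins and proteoglycans 2 were higher and 0 lower, Tnc, tenascin C, at 0.18 and Efemp1, a fibulin, at 0.36, with a median of 0.03.

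Enzymes that fold and modify collagen gave 3 higher and 0 lower of 18, with a median of 0.02. Tgm2, the transglutaminase that crosslinks matrix proteins, had a level of 7.98 ± 0.19 in HFM and 7.66 ± 0.09 in HFS livers (SD, n = 7), a difference of 0.32 (SE 0.08) with a limma p of 0.000761, an adjusted p of 0.714 and an exact permutation p of 0.00291. Crtap and Leprel1, of collagen prolyl 3-hydroxylation, differed by 0.20 and 0.16. Of 26 other proteases and inhibitors and of 32 other genes of transforming growth factor beta and platelet-derived growth factor signalling, 0 passed the threshold in either direction, with medians of 0.02 and -0.00.

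Among cell type markers, 11 of 15 stellate cell markers had a higher HFM mean, with a median of 0.17, and 2 were higher at the unadjusted threshold, Pdgfrb and Colec11, a collectin of stellate cells, at 0.22 (limma p 0.00905). Of 8 markers of activated stellate cells, 7 of which are in the set, 1 was higher, Col1a2, with a median of 0.04. For 7 portal fibroblast and 4 vascular smooth muscle markers 0 passed, with medians of -0.08 and -0.03. Kupffer cell and macrophage markers had a higher HFM mean in 12 of 12, with a median of 0.30, and 5 were higher, among them Mpeg1 at 0.52, Cd5l at 0.56, C1qb at 0.41 and Cd68 at 0.31. The mean over these 12 markers ran from 6.62 to 7.62 in HFM and from 6.33 to 7.37 in HFS mice. Sinusoidal endothelial markers were above 0 in 7 of 10, with 1 higher, Stab1 at 0.18, a median of 0.08 and list means of 6.45 to 6.84 in HFM and 6.41 to 6.79 in HFS mice.

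Hepatocyte and cholangiocyte markers gave 0 past the threshold, with medians of 0.01 over 6 genes and -0.04 over 5. Lymphocyte markers gave 1 higher, Cd3g, and 1 lower, Cd79a, of 7, with a median of 0.01. Neutrophil markers were above 0 in 6 of 6 with a median of 0.24, 1 higher, Cxcr2, and list means of 3.47 to 5.29 in HFM and 3.38 to 4.31 in HFS mice. The value of 5.29 was that of HFM2 alone, and the other HFM mice ran from 3.47 to 3.78, inside the HFS range. Macrophages also express Tgfbi, and the mean of the 12 macrophage markers was 7.03 over the HFM and 6.70 over the HFS mice. Of 80 relations of the 10 genes past the unadjusted threshold with 8 marker list means, 0 passed an adjusted permutation p of 0.05. The lowest adjusted p was 0.107 by r and 0.0752 by rho. With the endothelial mean r was positive for 9 of 10 genes (median 0.51, or 0.45 with group means removed). With the macrophage mean it was positive for 8 of 10 (median 0.48, or 0.31 with group means removed). With the cholangiocyte mean it was positive for 0 of 10 (median -0.41). The largest r was 0.76, of Sparc with the endothelial mean (permutation p 0.00229, adjusted p 0.107). The part of macrophage or endothelial RNA in the differences of these genes was not tested.

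**Figure D5:**
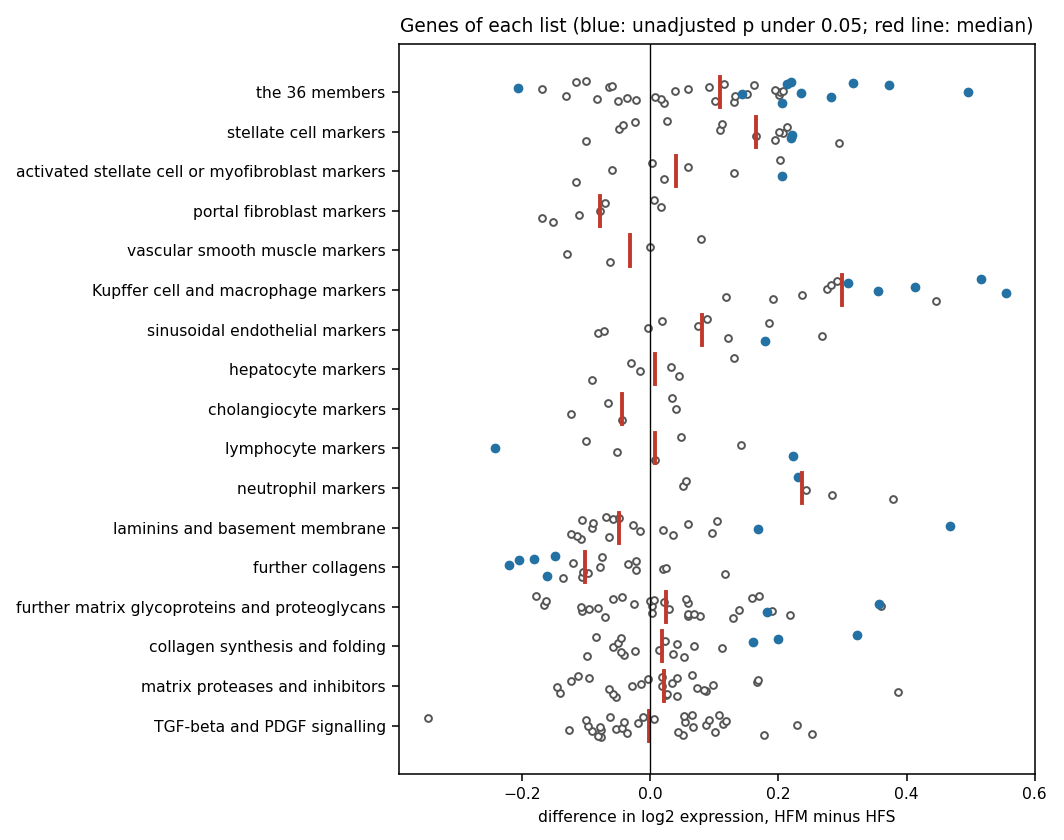
Difference in log2 expression between HFM and HFS livers (horizontal axis) for every measured gene of the set and of 16 marker and matrix lists (rows), with genes at an unadjusted limma p under 0.05 in blue, the others open, and the median as a red line. The set's median lies at 0.11, macrophage markers at 0.30 and the further collagens at -0.10.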

How the data were processed

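Each of 14 mice gave 1 liver RNA sample and 1 Affymetrix array for mouse genes, with no pooling. The table holds deposited log2 values for each probe set, which the authors summarized and normalized between arrays in Affymetrix Expression Console. RMA is the algorithm in the labels and PLIER the one in the study's methods. For software versions, probe annotation and genome build, each is not given in the sources used here. Groups came from the sample labels, and 0 value columns were left unused.

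Of 35556 probe sets, 23410 had at least 1 gene symbol in the platform annotation (21789 exactly 1) and were fitted together with limma 3.58.1 (lmFit and eBayes, R 4.3.3) as HFM minus HFS with no covariate and no signal filter. P values were adjusted by the method of Benjamini and Hochberg across these 23410. Exact permutation tests used all 3432 assignments of mice to groups, and correlations used 100000 permutations. The genes and lists were chosen with earlier results of these data known. Described in full were genes past an unadjusted p of 0.05 or the methods' filter, Col1a1, Col1a2, Col3a1, Acta2, Des, Pdgfrb, Tgfb1, Timp1 and the 4 genes next in p. From each other list the genes past 0.05 were named, or the 4 with the smallest p where more passed.

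Other settings tried were a block for the replicate number, array medians subtracted, quantile normalization, probe sets above the median signal, a trended and robust prior, array weights, a test without moderation, unnamed probe sets added, 1 probe set or the mean per gene, and each mouse left out. The script was tested on simulated data. The number of arrays limits the precision, and no detection calls, batch, litter or scan date were in the sources used here.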

Additional observations from a re-analysis of the deposited data

Results flagged for a closer look

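In each gene and group, the mouse farthest from the others was compared with the range of its group by Dixon's ratio. A mouse stood apart in 5 of 72 groups of 7 mice tested, and chance alone gives about 1 in 20 groups. Col1a2 in HFM5 was 5.77, below the next HFM mouse at 6.12. Col3a1 in HFS5 was 6.03, with the next HFS mouse at 6.21. Fn1 in HFM1 was 10.88, with the next HFM mouse at 11.01. Timp1 in HFS5 was 2.74, with the next HFS mouse at 3.23. Tgfbr2 in HFS1 was 6.46, above the next HFS mouse at 6.22.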

How the results depend on the processing

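The median difference of the 36 genes was 0.11 and ran from 0.09 to 0.14 when each mouse was left out. The count of higher genes was 9, ran from 5 (without HFM6) to 15 (without HFM5) over mice left out, and was 7 to 13 in the other settings. The share of all probe sets that were higher ran from 2.49% to 5.40% over mice left out and from 3.13% to 5.40% in the other settings. The count of lower genes was 1, ran from 1 to 2 over mice left out, and was 0 among probe sets above the median signal, where Loxl1 was not tested and 30 genes were. The count past the filter of the methods was 1, ran from 1 to 5 over mice left out (5 without HFM5, 4 without HFM7 and 2 without HFM4, HFS1 or HFS2), and was 2 with array weights, 2 with the trended and robust prior and 0 with a Bonferroni correction, a setting added after the data were seen. The share of all probe sets past that filter in these settings is not given here. The cause of the changes with array weights and with the prior was not tested. At an adjusted p of 0.05, 0 genes of the set passed in any setting run. Subtracting array medians moved the median of all probe sets from 0.00 to 0.03 and changed the shares of probe sets higher and lower from 3.57% and 2.90% to 5.40% and 1.70%, while the set then gave 10 higher and 1 lower. Col1a2 lost its unadjusted p under 0.05 in 1 of 24 settings (without HFS5), Pdgfrb in 4 and Tgfbr2 in 5.

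Mice of both groups carry the numbers 1 to 7. Deviations of mice with the same number from their group means correlated at -0.20 to 0.14, with 1 of 7 pairs over 0.1, and 0 of 7 HFM arrays were closest to the HFS array of their number, so the numbers were not taken as a pairing. With the replicate number as a block, 11 genes were higher, beside 3.13% of all probe sets, and they included the same 9. In that setting 1 was lower, beside 2.52%, and 3 passed the filter of the methods (Tgfbi, Timp3 and Pdgfra).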
